A study of Drosophila melanogaster with 13 samples.

Results

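Adult fly heads mutant for both egg and Su(var)3-9 were compared with heads mutant for Su(var)3-9 alone, which asks what the egg mutation changed where Su(var)3-9 was already mutant. The comparison used 6 of the 13 arrays of the series, 3 per genotype, taken by the genotype that the labels give. Double mutant flies were yw; egg235/CyO; Su(var)3-906, so that egg was mutant on a single chromosome and its homolog was the CyO balancer. Flies of the Su(var)3-9 mutant group had the genotype yw; +/CyO; Su(var)3-906, and therefore shared the yw background, the balancer and the Su(var)3-9 allele with the double mutant. Any other difference between the flies of these groups cannot be told apart from the egg mutation. The remaining groups were the yw; +/CyO control and the egg235/CyO single mutant. Their arrays took part in the estimate of spread behind each SE and p below. Their values enter otherwise only where they are set beside those of this comparison. All flies were reared at 25 °C and 70% humidity on corn meal food. The labels call the 3 arrays of a genotype biological replicates and give no sex, age or number of flies per sample. The allele Su(var)3-906 is written once in each genotype, and the labels say no more on its zygosity.

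Both genes encode enzymes that methylate lysine 9 of histone H3, the modification that marks heterochromatin. Su(var)3-9 is the fly homolog of mammalian SUV39H enzymes, and its product acts mainly in pericentric heterochromatin, where the mark is bound by heterochromatin protein 1. The product of egg (eggless) is the homolog of mammalian SETDB1, and it methylates the small chromosome 4 and is needed in the female germ line. Genes near heterochromatin can be silenced by its spread or, as for many that lie inside it, depend on it.

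Signals came from Affymetrix arrays for Drosophila, where each probe set pools several short probes for a transcript, and all values below are log2 signals, so that a difference of 1 is a 2-fold change. Of the 18769 probe sets tested, 13646 had 1 gene symbol and stood for 11981 genes. Neither egg nor Su(var)3-9 had a probe set under its name, and the genotypes could therefore not be checked against the mutated genes. The correlation between arrays of the same genotype was 0.992 to 0.997, and between the genotypes it was 0.984 to 0.992. Marker genes of heads were high on all 6 arrays: the median log2 signal was 10.6 to 10.9 over 31 photoreceptor genes, 9.28 to 9.55 over 41 neuron genes and 9.81 to 9.89 over 20 glia genes. Of the 6 arrays, 2 stood apart through transcripts of other body parts. The median of 34 accessory gland and ejaculatory bulb genes was 4.43, 4.59 and 6.13 on Su(var)3-9 mutant replicates 1, 2 and 3, and 5.21, 6.84 and 5.30 on double mutant replicates 1, 2 and 3. Su(var)3-9 mutant replicate 3 was also highest for gut genes, at 6.58 against 4.83 to 5.68 on the other 5 arrays, and double mutant replicate 2 was highest for testis genes, at 5.50 against 4.51 to 5.15. Where the count of called genes in a list moved by over 1.5 times without both of these arrays, it is given both ways.

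**Figure D1:**
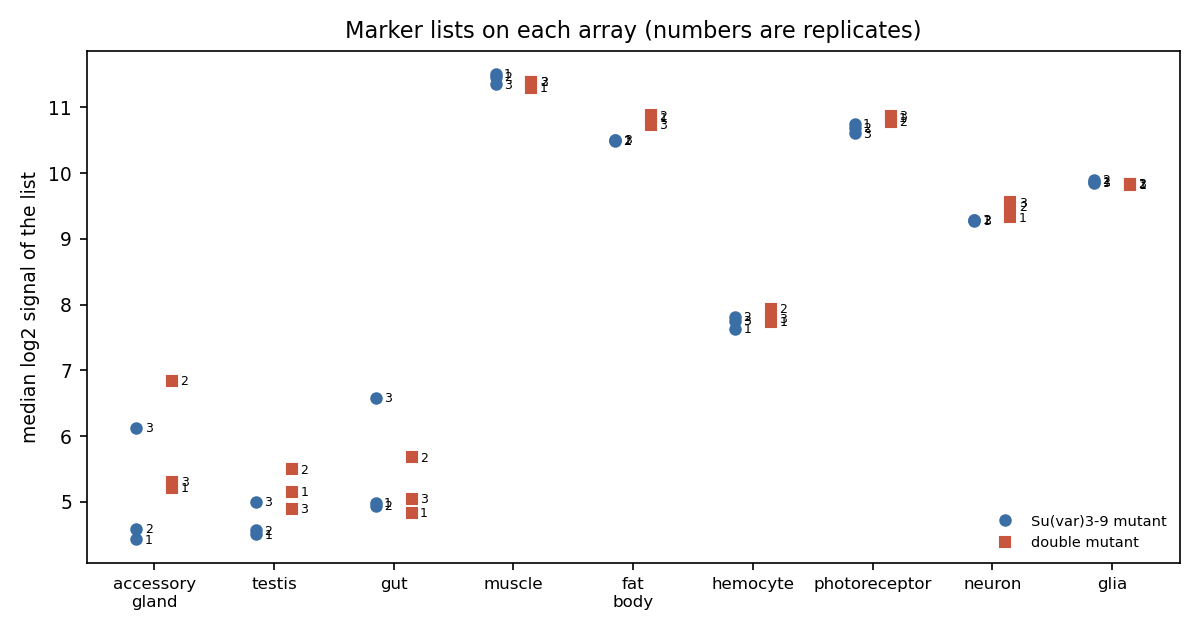
Median log2 signal of each marker list (y axis) on each of the 6 arrays, by list (x axis), with Su(var)3-9 mutant arrays as circles, double mutant arrays as squares and the replicate number beside each point. Accessory gland genes reach 6.13 on Su(var)3-9 mutant replicate 3 and 6.84 on double mutant replicate 2. Photoreceptor, neuron and glia markers span less, at 10.6 to 10.9, 9.28 to 9.55 and 9.81 to 9.89 over all 6 arrays. Their medians still do not overlap between the genotypes, with those of photoreceptor and neuron markers higher and that of glia markers lower in the double mutant. The median of the differences of the 20 glia genes went the other way, at 0.103.

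Heads of the double mutant differed from Su(var)3-9 mutant heads in a limited set of genes, in both directions in like numbers. Among 18769 probe sets, 971 (5.17%) differed at an adjusted p under 0.05 (limma with Benjamini-Hochberg adjustment), of which 478 (2.55%) were higher and 493 (2.63%) lower in the double mutant. At least 2-fold changes were made by 69 of the higher and 85 of the lower probe sets. By gene, 718 of 11981 (5.99%) differed, 370 (3.09%) upward and 348 (2.90%) downward, and the median difference over all genes was 0.0053. The groups did not overlap in 3247 genes (27.1%). Without Su(var)3-9 mutant replicate 2 the count of probe sets was 622, without double mutant replicate 2 it was 610, and without Su(var)3-9 mutant replicate 3 and double mutant replicate 2 together it was 564. Without double mutant replicate 3 the lower probe sets numbered 319. Without both arrays that stood apart, 178 genes were higher and 224 lower. The count of higher genes was 213 without Su(var)3-9 mutant replicate 2 and 201 without double mutant replicate 2, and that of lower genes was 203 to 226 without Su(var)3-9 mutant replicate 1 or 2 or double mutant replicate 1 or 3. In 15 other fits of the same values, which left out arrays or changed the scaling or the model, 407 of the 971 probe sets passed every time, 168 of them higher and 239 lower. The same held for 280 of the 718 genes, 121 higher and 159 lower, and genes named below belong to these 280 unless an exception is stated.

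**Figure D2:**
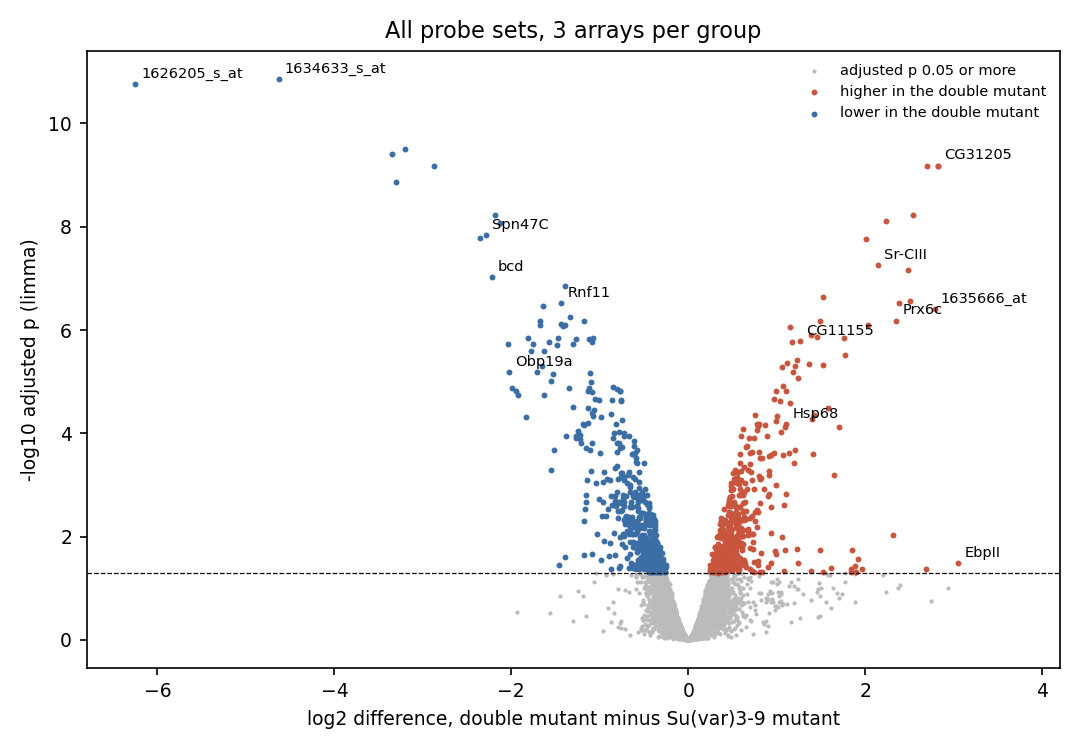
Log2 difference, double mutant minus Su(var)3-9 mutant (x axis), against the -log10 adjusted p of limma (y axis), 1 point for each of the 18769 probe sets, with 3 arrays per group and a dashed line at an adjusted p of 0.05. The 478 higher and 493 lower probe sets are coloured, and the point farthest to the left, 1626205_s_at, lies at -6.25.

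The largest changes lay in probe sets without a gene name in the annotation used. Probe set 1626205_s_at read 12.38, 12.48 and 12.19 on the Su(var)3-9 mutant arrays and 6.17, 5.81 and 6.34 on the double mutant arrays, which is a 76-fold fall (log2 difference -6.25, SE 0.125, adjusted p = 1.70e-11). The transcript was thus bright in all Su(var)3-9 mutant samples and dim in all double mutant samples. Probe set 1634633_s_at fell by 4.63 and 1641245_a_at fell by 3.35 on the same scale. In the groups without the Su(var)3-9 mutation these 3 probe sets were as dim as in the double mutant or near it: 1626205_s_at had a mean of 6.55 in the egg mutant and 5.62 in the control, 1634633_s_at of 8.81 and 7.89, and 1641245_a_at of 5.44 and 4.85. In the other direction, 1635666_at rose by 2.78, 1639571_s_at by 2.70 and 1626821_s_at by 2.54. All 6 passed in each of the other fits that tested them. Of 5123 probe sets with no symbol or several, 79 were higher and 110 lower, 18 and 37 of them by at least 2-fold.

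Named genes were ranked among called genes whose groups did not overlap. The 15 largest such rises ran from 3.06 (EbpII) to 1.53 (CG2519) and the 15 largest such falls from -2.29 (Spn47C) to -1.46 (LysP). Called genes that overlapped were left out by this rule. Among them, Acp98AB (2.69), lncRNA:CR9284 (1.88) and CG15219 (1.84) had larger rises than CG2519. CG31205 read 7.06, 7.08 and 6.94 in the Su(var)3-9 mutant and 9.83, 9.78 and 9.94 in the double mutant, a rise of 2.82 (SE 0.083, 7.08-fold, adjusted p = 6.52e-10). Prx6c encodes a peroxiredoxin, an enzyme that reduces peroxides. Its signal was 8.83, 8.47 and 8.46 in the Su(var)3-9 mutant and 10.92, 11.02 and 10.88 in the double mutant, 5.1-fold higher (adjusted p = 6.56e-07). CG14419 went from 4.17, 4.05 and 4.29 to 6.45, 6.52 and 6.27, close to the dim end of the array in one group and well above it in the other. CG31809 rose by 2.03, CG14647 by 2.01, CG3397 by 1.77, CG12594 by 1.58 and the long noncoding RNA lncRNA:CR32368 by 1.65. By the rule that picked them, none of these overlapped between the groups.

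Among the other rises, those of EbpII, CG9029, BG642312 and CG2127 came with unequal arrays. EbpII, a protein of the male ejaculatory bulb, read 4.35, 4.51 and 7.27 in the Su(var)3-9 mutant and 7.39, 10.15 and 7.76 in the double mutant. Su(var)3-9 mutant replicate 3 lay next to the double mutant arrays, and the call (adjusted p = 0.033) was lost in 8 of 16 alternatives, with an adjusted p of up to 0.147. Among the arrays whose removal ended it were Su(var)3-9 mutant replicates 1 and 2 and double mutant replicates 2 and 3. BG642312 (1.97) and CG2127 (1.92) also rose and each lost its call in 8 of 16 alternatives, both without Su(var)3-9 mutant replicate 1 or 2 or double mutant replicate 2, and CG2127 also without double mutant replicate 1. CG9029 rose by 2.31 and lost its call when the 6 arrays were fitted alone (adjusted p = 0.0693). The signals of EbpII, CG9029, BG642312 and CG2127 were all highest on double mutant replicate 2, and within the Su(var)3-9 mutant all on replicate 3, the arrays on which accessory gland genes were highest. Without both of these arrays the rises were 3.14 for EbpII (adjusted p = 1.07e-06), 2.53 for CG9029 (0.000646), 1.56 for BG642312 (0.00469) and 1.80 for CG2127 (0.00111), all past the threshold. These p-values give no support, as the arrays left out were picked by a list that holds EbpII. Leaving out the highest array of each group narrows the spread by the choice itself. Without double mutant replicate 2 alone BG642312 differed by 1.22.

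Falls were more even between arrays. Spn47C encodes a serpin, a protein that inhibits serine proteases, and fell from 9.19, 9.28 and 9.19 to 6.86, 6.99 and 6.94 (difference -2.29, SE 0.0939, 4.88-fold, adjusted p = 1.44e-08). Signals of bcd, whose messenger RNA is laid down by the mother to pattern the anterior of the embryo, were 6.42, 6.50 and 6.23 in the Su(var)3-9 mutant and 4.32, 3.91 and 4.25 in the double mutant. They came from the brighter of its probe sets, whereas the other was dim in both groups, at 3.55 to 3.63 and 3.43 to 3.70, and the mean of both probe sets fell by 1.12. The double mutant level of bcd lay near the means of 3.87 in the egg mutant and 3.85 in the control (a description, with no test). CG9616 fell by 2.13, CG8100 fell by 2.04 and CG30287 by 1.95, and each was under 5 in both the egg mutant and the control. CG34227, the brightest of the 15, fell from 12.84, 12.95 and 12.82 to 11.31, 11.47 and 11.17. CG31704 fell by 1.57, and alpha-Est2, a carboxylesterase gene, by 1.65. LysP, which encodes a lysozyme, read 4.79, 4.94 and 6.31 against 4.11, 3.69 and 3.88, and its call ended in 7 of 16 alternatives, including those without Su(var)3-9 mutant replicate 3, where gut genes were highest, and those without any 1 of the double mutant arrays. Without both arrays that stood apart LysP differed by -0.87 (adjusted p = 0.177).

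**Figure D3:**
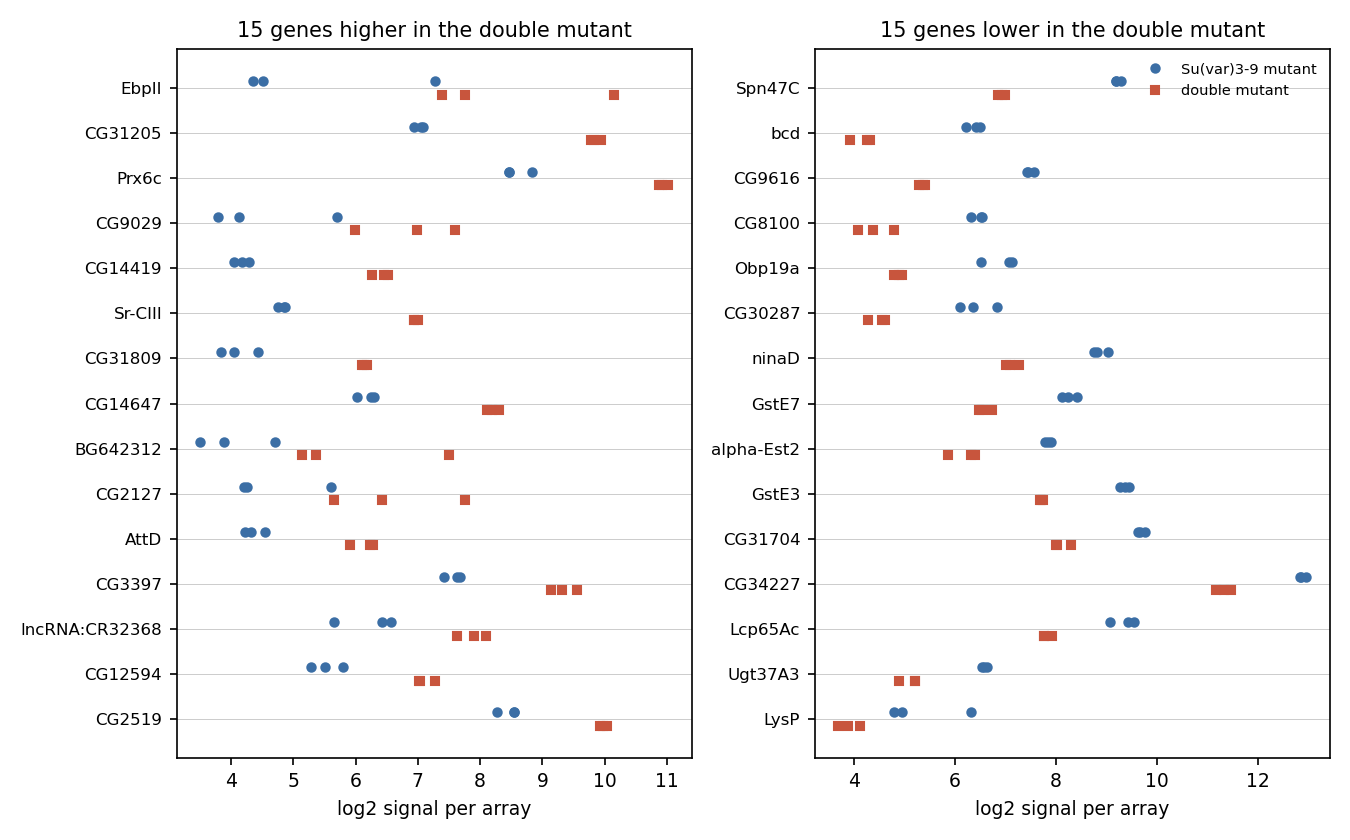
Log2 signal (x axis) of the 15 genes with the largest rise (left) and the 15 with the largest fall (right) on each array, with 3 Su(var)3-9 mutant arrays as circles and 3 double mutant arrays as squares. The genes were picked among called genes whose groups did not overlap, so the lack of overlap follows from the choice. EbpII spans 4.35 to 7.27 within the Su(var)3-9 mutant, whereas CG31205 spans 6.94 to 7.08.

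Of the detoxification genes called, more fell than rose. Glutathione S-transferases, which join glutathione to foreign or oxidised molecules, and UDP-glycosyltransferases, which join sugars to them, together had 69 measured genes, of which 14 (20.29%) were lower and 5 (7.25%) higher in the double mutant, against 2.90% and 3.09% over all genes. The median of the 69 was -0.0967. GstE7 read 8.24, 8.11 and 8.41 in the Su(var)3-9 mutant and 6.47, 6.72 and 6.54 in the double mutant, and GstE3 read 9.36, 9.27 and 9.44 and 7.71, 7.75 and 7.68. These are 3.19-fold and 3.13-fold falls with no overlap between the groups (adjusted p = 6.56e-07 and 3.48e-07). GstE5 fell by 1.08 and GstE6 by 0.62. GstE5, GstE6 and GstE7 are neighbours on chromosome arm 2R and formed 1 of 4 runs of 3 adjacent genes called in 1 direction. Of the same family, GstE2 had a difference of 0.55 and GstE1 of 0.36, both past the threshold and upward. The widely used reporter of oxidative stress GstD1 read 12.64, 12.76 and 12.73 and 12.48, 12.64 and 12.46 and did not pass (adjusted p = 0.217).

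UDP-glycosyltransferase genes moved in both directions. Ugt37A3 fell from 6.63, 6.53 and 6.58 to 5.20, 4.89 and 5.21 (difference -1.48, adjusted p = 1.92e-06). Ugt35C1 fell by 1.13, Ugt301D1 by 1.06, Ugt49C1 by 0.83 and Ugt49B1 by 0.75. Ugt36E1 instead rose from 5.93, 5.99 and 5.95 to 7.05, 7.22 and 7.11, which is 2.26-fold (adjusted p = 1.72e-06). Over the 69 genes, 10 of the 14 falls and 1 of the 5 rises, that of Ugt36E1, passed in every fit. The count of rises was 1 without Su(var)3-9 mutant replicate 3 and double mutant replicate 2.

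Cytochrome P450 genes, whose products oxidise hormones, fatty acids and toxins, were called often and in both directions. Of 89, 13 (14.61%) were higher and 9 (10.11%) lower, against 3.09% and 2.90% of all genes, with a median of 0.0403. Cyp4p1 had the largest fall, from 8.67, 8.75 and 8.60 to 7.24, 7.39 and 7.35 (difference -1.35, SE 0.114, adjusted p = 1.31e-05). Cyp6a2, a gene known for its part in insecticide resistance, fell by 0.85 and Cyp6w1 by 0.77, with SDs over arrays of at most 0.0517. Cyp6a20, which has been tied to aggression between males, rose from 9.68, 9.62 and 9.70 to 10.59, 10.79 and 10.60 (difference 0.99, adjusted p = 1.49e-05). Its neighbours on 2R Cyp6a21 (0.42) and Cyp6a8 (0.45) rose less, and their calls did not hold in every fit. In every fit 7 of the 13 rises and 6 of the 9 falls passed, and without Su(var)3-9 mutant replicate 3 and double mutant replicate 2 the count of rises was 7.

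Of the cuticle protein genes called, more fell than rose. Of 105, 12 (11.43%) were lower and 3 (2.86%) higher, against 2.90% and 3.09% of all genes, with a median of -0.0745. Lcp65Ac read 9.42, 9.54 and 9.06 in the Su(var)3-9 mutant and 7.92, 7.75 and 7.76 in the double mutant (difference -1.53, SE 0.122, adjusted p = 7.14e-06). Cpr76Bb fell by 1.13, TwdlE by 1.04, Cpr56F by 0.88 and Cpr64Ad by 0.59. Cpr49Ac had a difference of -1.39, but its call was lost in 8 of 16 alternatives. The largest rise was that of Cpr72Ec, 0.91 (adjusted p = 0.00063). The count of falls depended on single arrays, at 6 without Su(var)3-9 mutant replicate 1, 7 without replicate 2, 7, 6 and 5 without double mutant replicates 1, 2 and 3, 7 without both arrays that stood apart, and 5 in every fit.

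**Figure D4:**
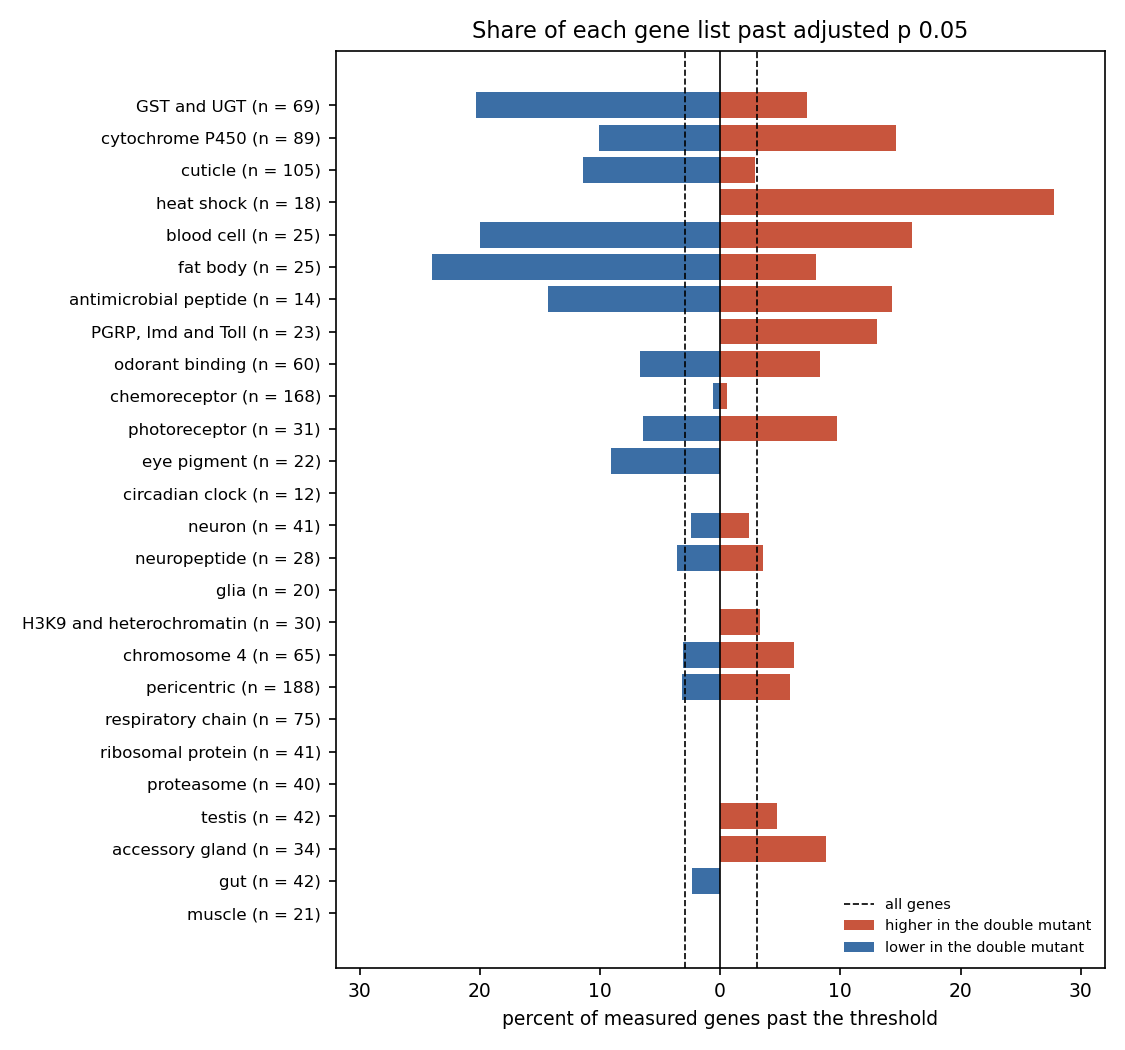
Percent of the measured genes of each list (y axis, with n) that were higher (right of 0) or lower (left of 0) in the double mutant at an adjusted p under 0.05, with dashed lines at the 3.09% and 2.90% of all genes. Bars for detoxification genes reach 20.29% on the lower side, and the 5 of 18 heat shock genes reach 27.78% on the higher side with none on the other.

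Of 18 measured heat shock genes, 5 rose and none fell. The 5 that rose (27.78%, against 3.09% of all genes) passed in every fit, and the median of the list was 0.158. Hsp68, a stress-induced member of the Hsp70 family, read 7.09, 7.37 and 7.22 in the Su(var)3-9 mutant and 8.24, 8.44 and 8.34 in the double mutant (2.15-fold, SE of the difference 0.113, adjusted p = 6.74e-05). Of the small heat shock proteins, Hsp26 read 8.49, 8.38 and 8.47 against 9.40, 9.71 and 9.51. Hsp27 went from 7.68, 7.58 and 7.71 to 8.62, 8.96 and 8.59. On all 3 genes double mutant replicate 2 was highest, and the lowest double mutant array was above the highest Su(var)3-9 mutant array. Their co-chaperones stv, of the BAG family, and DnaJ-1, of the Hsp40 family, rose by 0.54 and 0.51. Hsf, the transcription factor that induces heat shock genes, had a difference of 0.10 (SE 0.0794) and Hsc70-3, the chaperone of the endoplasmic reticulum, of -0.081 (SE 0.0682), and neither passed.

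Antimicrobial peptide genes changed in both directions. Among 14 antimicrobial peptide genes, 2 rose and 2 fell (14.29% each), against 3.09% and 2.90% of all genes. AttD, an attacin, had the largest change, from 4.55, 4.23 and 4.33 to 6.24, 6.27 and 5.92 (3.42-fold, adjusted p = 3.05e-06). Def, the defensin gene, read 9.36, 9.28 and 9.05 against 10.08, 9.85 and 9.93, a rise of 0.72. The drosomycin-like genes Drsl5 and Drsl4 fell by 0.95 and 0.86, Drsl5 from 11.47, 11.54 and 11.63 to 10.45, 10.70 and 10.63. The groups did not overlap in any of these 4 genes. Of 23 genes of peptidoglycan recognition and the Imd and Toll pathways, 3 rose (13.04%, against 3.09% of all genes) and none fell. PGRP-SC2, whose enzyme breaks down peptidoglycan, rose by 0.94 (adjusted p = 0.00268). Rel, the NF-kappaB factor of the Imd pathway, and key, a subunit of its upstream kinase, rose by 0.33 and 0.28. The calls of Rel and key ended in 8 and 10 of 16 alternatives, and without Su(var)3-9 mutant replicate 1 or 3 or double mutant replicate 2 or 3, and without both arrays that stood apart, a single gene of the list was called. TotB was lower by 0.84, 1 of 5 Turandot stress genes called. None of 10 Bomanin and other immune-induced genes passed in limma, with 3 lower at an unadjusted p under 0.05, and 1 passed without Su(var)3-9 mutant replicate 2.

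Blood cell genes moved in opposite directions, and the same values cannot tell a change in the number of cells of a type from a change in RNA per cell. Of 25 genes, 4 were higher and 5 lower, and the median was -0.112. Sr-CIII, a class C scavenger receptor, rose from 4.85, 4.87 and 4.75 to 6.94, 6.94 and 7.01 (difference 2.14, SE 0.1, adjusted p = 5.55e-08). Its relative Sr-CI, a receptor with which hemocytes take up bacteria, rose from 6.79, 6.65 and 6.61 to 7.68, 7.88 and 7.83. Hml, the hemolectin gene used as a marker of plasmatocytes, rose from 6.99, 6.87 and 6.84 to 8.02, 8.20 and 8.02, and crq, a CD36-like receptor for dying cells, rose by 0.68. In the other direction NimC2 fell by 0.76, NimC4 by 0.65, Pxn (peroxidasin) by 0.50, NimC1 by 0.38 and Col4a1 (collagen IV) by 0.37. All 4 rises but 2 of the 5 falls, those of NimC2 and Pxn, passed in every fit, and the count of falls was 3 without Su(var)3-9 mutant replicate 2 or double mutant replicate 3. The median of the 25 genes was 7.63 to 7.81 on the Su(var)3-9 mutant arrays and 7.74 to 7.94 on the double mutant arrays, and these medians overlapped between the groups.

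Fat body genes were mostly lower where they were called. Of 25, 6 (24.0%) fell and 2 (8.0%) rose, against 2.90% and 3.09% of all genes, and the median of the 25 differences was -0.103. The median level of the list went the other way. It was 10.48 to 10.50 on the Su(var)3-9 mutant arrays and 10.73 to 10.88 on the double mutant arrays. The gene fit, which encodes a secreted protein of the head fat body that is far more abundant in females, read 12.51, 12.37 and 12.35 in the Su(var)3-9 mutant and 11.31, 11.06 and 11.39 in the double mutant, a 2.23-fold fall (SE of the difference 0.18, adjusted p = 0.00217). Lsd-1, a perilipin of lipid droplets, fell by 0.70. Cyp4d21, a target of the sex determination pathway in the fat body, fell by 0.67, and dsx, the transcription factor at the end of that pathway, by 0.47. A dimmer probe set of dsx differed by 0.47 the other way and did not pass. Miox, which degrades inositol, and FASN2, a fatty acid synthase, fell by 0.41 and 0.69. Neither was called in every fit, and the call of FASN2 ended in 6 of 16 alternatives, among them those without Su(var)3-9 mutant replicate 1 or 3 or double mutant replicate 1 or 3. The lipase gene bmm rose by 0.35 and the glucosidase gene tobi by 1.24; neither was called without Su(var)3-9 mutant replicate 2, without double mutant replicate 2 or without both arrays that stood apart. The yolk protein genes, made in the fat body of females, were bright in both groups: Yp1 read 14.36, 14.34 and 14.29 against 14.28, 14.21 and 14.27. Yp2 and Yp3 differed by -0.15 and -0.13, and none of the 3 passed (adjusted p = 0.604, 0.422 and 0.376).

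Odorant-binding proteins, which carry odorants in the fluid of the antennal hairs, changed in both directions. Of 60 genes, 5 (8.33%) were higher and 4 (6.67%) lower, against 3.09% and 2.90% of all genes. Obp19a read 7.06, 7.13 and 6.51 in the Su(var)3-9 mutant and 4.95, 4.89 and 4.79 in the double mutant (difference -2.02, SE 0.16, adjusted p = 6.52e-06). Its other probe set fell by 1.15. The adjacent gene Obp19b rose instead, by 0.996, and Obp19c by 0.73, a call that did not hold in every fit. A dimmer probe set of Obp19c differed by -0.10 and did not pass. Obp83g fell by 0.54, and lush, the protein needed to sense a male pheromone, by 1.17, with a call that ended in 7 of 16 alternatives, including those without any 1 of the double mutant arrays. In every fit 3 of the 5 rises and 2 of the 4 falls passed, and the counts were also 3 and 2 without Su(var)3-9 mutant replicate 1 and without both arrays that stood apart. Receptors of taste and smell were seldom called: of 168, Ir76a rose by 0.56 and Or63a fell by 0.68. Without Su(var)3-9 mutant replicate 1 there were 3 falls, and without both arrays that stood apart there was no rise.

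The eye showed one large change. The gene ninaD encodes a scavenger receptor through which carotenoids, the source of the visual chromophore, enter cells. It read 8.75, 9.03 and 8.82 in the Su(var)3-9 mutant and 7.09, 7.26 and 7.001 in the double mutant, a 3.37-fold fall (SE of the difference 0.121, adjusted p = 1.88e-06). Of its partners in chromophore synthesis, pinta, a retinoid-binding protein, fell by 0.31, while the oxygenase gene ninaB and the receptor gene santa-maria differed by 0.075 and 0.14 and did not pass. Among 31 photoreceptor genes 3 rose (9.68%) and 2 fell (6.45%), against 3.09% and 2.90% of all genes. The rises were laza, a lipid phosphatase (0.52), inaD, the scaffold of the light response (0.35), and the calcium exchanger gene Calx (0.33). The calls of inaD and Calx were lost without any 1 of the 6 arrays, which leaves 1 rise, and that of pinta without each of the arrays but Su(var)3-9 mutant replicate 3. Without both arrays that stood apart 1 photoreceptor gene was higher and 1 lower. At an unadjusted p under 0.05, 16 of the 31 were higher and 2 lower, against 1265 and 1107 of all 11981 genes, and the median of the list was 0.193. Of 22 eye pigment genes, bw, a transporter of pigment precursors, fell by 0.59 and se, an enzyme of the red pigments, by 0.46. For bw another probe set, dimmer, differed by 0.90 the other way, and the count of pigment genes was 1 without Su(var)3-9 mutant replicate 1 or 2 or double mutant replicate 1 or 3. Without both arrays that stood apart it was 0, as the calls of bw and se were both lost, and neither held in every fit.

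Neuron and neuropeptide genes were called at shares near those of all genes, at 2.44% and 3.57% in each direction, against 3.09% higher and 2.90% lower. Of 41 neuron genes, stai, encoding the microtubule regulator stathmin, rose from 8.82, 8.50 and 8.82 to 9.33, 9.48 and 9.55 (adjusted p = 0.00119), and the dopamine receptor gene Dop1R1 fell by 0.43, a call that ended without Su(var)3-9 mutant replicate 1 or 3, without double mutant replicate 1 or 2 or without both arrays that stood apart. The pan-neuronal gene elav and the glial gene repo differed by 0.02 and 0.016. Of 28 neuropeptide genes, Eh, which encodes eclosion hormone, fell from 7.44, 7.32 and 6.97 to 6.19, 5.88 and 5.91 (2.38-fold, adjusted p = 8.85e-05) and Nplp1, a neuropeptide-like precursor, rose by 0.48. No gene passed in limma among 20 glia and 12 circadian clock genes. At an unadjusted p under 0.05, 6 glia genes were higher and 2 lower, and 3 clock genes were higher and 1 lower. Of all 11981 genes, 1265 were higher and 1107 lower at that level. The median difference of the glia list was 0.103, although the median level of the list was lower in the double mutant. Without Su(var)3-9 mutant replicate 3, 1 glia gene passed.

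Genes of H3K9 methylation and heterochromatin were close to equal in both genotypes. Of 30 measured, 1 (3.33%) passed: Haspin, a kinase of histone H3, read 7.08, 6.86 and 7.13 in the Su(var)3-9 mutant and 7.52, 7.65 and 7.66 in the double mutant (difference 0.59, SE 0.0954, adjusted p = 0.00273). The gene of heterochromatin protein 1 read 9.23, 9.30 and 9.33 against 9.43, 9.52 and 9.46 and did not pass (adjusted p = 0.182). Su(var)3-7 differed by -0.0014 (SE 0.127), and wde, the homolog of the SETDB1 cofactor ATF7IP, by 0.048 (SE 0.0882). None of 24 piRNA pathway genes and none of 6 dosage compensation genes passed in limma, and 1 gene of each list had an unadjusted p under 0.05. Transposable elements were not analysed here.

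Chromosome 4, where the product of egg methylates H3K9, had 65 measured genes. Of these, 4 (6.15%) were higher and 2 (3.08%) lower, against 3.09% and 2.90% of all genes, with a median of 0.0601. The largest change was a fall, that of Rnf11, a ubiquitin ligase gene, from 11.56, 11.77 and 11.64 to 10.09, 10.24 and 10.33 (2.71-fold, adjusted p = 3.02e-07). CG11155 rose from 7.64, 7.58 and 7.70 to 8.97, 8.75 and 9.00 (2.4-fold, adjusted p = 1.65e-06). The other probe set of CG11155, of similar brightness, read 7.58, 8.01 and 7.94 against 8.18, 8.25 and 8.30, a difference of 0.40 that did not pass (adjusted p = 0.0588), and the mean of both probe sets rose by 0.83. The zinc transporter gene Zip102B and Mpv17, a gene of a mitochondrial inner membrane protein, rose by 0.97 and 0.67. CG31997 rose by 0.25 and lost its call without any 1 of the 6 arrays. Kif3C, a kinesin gene, fell by 0.61 and was not called without Su(var)3-9 mutant replicate 3 and double mutant replicate 2 together, where chromosome 4 had 1 fall.

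Pericentric genes, taken from the arm ends next to the centromeres, numbered 188. Of these, 11 (5.85%) were higher and 6 (3.19%) lower, against 3.09% and 2.90% of all genes, with a median of 0.0567. CG14647 had the largest rise among them, from 6.30, 6.02 and 6.25 to 8.19, 8.30 and 8.10 (SE of the difference 0.0847, adjusted p = 1.76e-08). The long noncoding RNA lncRNA:CR43242 rose from 5.86, 5.37 and 5.41 to 7.03, 7.19 and 6.97. The pseudogene 18SrRNA-Psi:CR41602, a copy of ribosomal RNA sequence whose probes may read near-identical copies, fell from 7.501, 7.47 and 7.49 to 5.99, 6.44 and 6.13. CG40191 and CG40160 rose by 0.81 and 0.67, and CG14642 fell by 0.82. CG15219 was higher by 1.84 but lost its call in 11 of 16 alternatives, and the count of rises was 7 without Su(var)3-9 mutant replicate 2 and without double mutant replicate 2. On the long arms the shares were 1.28% higher and 1.55% lower on X (1873 genes), 2.81% and 2.99% on 2L, 3.71% and 3.05% on 2R, 3.59% and 3.41% on 3L, and 3.50% and 3.23% on 3R. Of the 100 measured genes nearest to egg on its arm, 3 were higher and 1 lower, near the 3.09% and 2.90% of all genes.

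Few genes of basic cell functions were called, but proteasome genes leaned lower. No gene passed in limma among 41 ribosomal protein, 75 respiratory chain and 40 proteasome genes. At an unadjusted p under 0.05, 2 of 41 ribosomal protein genes were lower and 5 of 75 respiratory chain genes higher, with none the other way. Of 40 proteasome genes, 13 were lower and none higher at that level, against 1107 lower and 1265 higher of all 11981 genes. The median of the proteasome list was -0.12, and -0.208 without both arrays that stood apart. Without Su(var)3-9 mutant replicate 3 there were 4 lower proteasome genes, without both arrays that stood apart there was 1, and without double mutant replicate 3 there was 1 higher respiratory chain gene. Of 69 mitochondrial ribosomal protein genes, mRpS31 and mRpS5 rose by 0.41 and 0.28 and mRpL4 fell by 0.40, and each call ended in at least 1 alternative, those of both rises without both arrays that stood apart. Among 13 glycolysis and gluconeogenesis genes, Pepck1, which commits carbon to glucose synthesis, fell from 13.32, 13.38 and 13.38 to 12.83, 12.78 and 12.81 (adjusted p = 0.000572), and Ald1, an aldolase gene, rose by 0.40, a call lost without any 1 of 5 of the arrays. With a dimmer probe set averaged in, Ald1 differed by 0.14.

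How many transcripts of male reproductive organs were called depended on single arrays. Of 34 accessory gland and ejaculatory bulb genes, 3 (8.82%) were higher and none lower. Of 42 testis genes 2 (4.76%) were higher and none lower, against 3.09% and 2.90% of all genes. Acp98AB read 5.16, 4.87 and 8.08 in the Su(var)3-9 mutant and 8.28, 9.87 and 8.04 in the double mutant. Su(var)3-9 mutant replicate 3 reached the level of the double mutant, and the call (adjusted p = 0.0429) was lost in 10 of 16 alternatives. Obp56g, an odorant-binding protein of seminal fluid that was bright in all heads, read 11.61, 11.50 and 11.59 against 12.10, 12.19 and 12.10 and passed in every fit. Of the testis genes, Mst98Cb and tHMG1 were higher by 0.93 and 0.91, calls that did not hold in every fit. Without Su(var)3-9 mutant replicate 3, 8 accessory gland and 9 testis genes were higher, without double mutant replicate 2 it was 1 and 0, and without both arrays it was 10 and 8. The counts of 10 and 8 give no support for a rise, since both arrays were picked by the levels of accessory gland genes. Without Su(var)3-9 mutant replicate 1 or 2 the counts were 1 and 0, without double mutant replicate 1 a single testis gene was higher, and without its replicate 3 the counts were 1 and 7. The sex peptide gene SP read 3.91, 4.30 and 6.397 against 5.79, 7.77 and 5.74 and did not pass (adjusted p = 0.184).

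Gut genes mark another body part, whereas heads also hold muscle. LysP was the 1 of 42 gut genes called, as given above, and none of 21 muscle genes passed in limma, with 5 at an unadjusted p under 0.05. Without Su(var)3-9 mutant replicate 3 no gut gene was lower and 1 was higher, without double mutant replicate 2 the counts were the same, without Su(var)3-9 mutant replicate 1 there were 2 lower, and without double mutant replicate 1 or 3 none was lower. Without both arrays that stood apart 1 gut gene was higher and none lower. Of 29 ovary and chorion genes, bcd was called. All 3 organ lists that moved between arrays were far higher in the control group, with medians of 10.01 to 10.62 for accessory gland, 9.79 to 10.4 for gut and 8.26 to 8.99 for testis. The egg mutant lay between for accessory gland (7.65 to 8.36) and testis (5.898 to 6.515). Its gut medians of 6.75, 6.24 and 6.13 overlapped the 6.58 of Su(var)3-9 mutant replicate 3.

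The same question can be asked without the Su(var)3-9 mutation, by setting the egg mutant against the control. This difference shares no array with the one above, though the tests share the estimate of spread. There 7471 of 11981 genes (62.4%) passed. Of the 718 genes called between double and Su(var)3-9 mutant, 325 (45.3%, and 4.35% of the 7471) were also called in the same direction, 175 (24.4%) in the opposite direction and 218 (30.4%) not at all. A test of the difference between the effects, the interaction, passed for 5914 genes (49.4%) and 7627 probe sets (40.6%), and for 451 of the 718 genes. The control arrays carried the high levels of male and gut transcripts given above, and their part in the interaction was not tested. The scaling of the arrays moved the interaction of all probe sets: its median was -0.136 as deposited, -0.379 with arrays centred on their medians and 0.0134 after cyclic loess, and the share of positive calls was 38.8%, 19.8% and 66.6%.

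For some genes the effects were alike. Sr-CIII rose by 2.14 in the presence of the Su(var)3-9 mutation and by 2.33 in its absence (interaction -0.19, SE 0.141, adjusted p = 0.324). GstE7 fell by 1.67 and by 1.95 (interaction 0.27, SE 0.144, adjusted p = 0.154). Hml rose by 1.18 and 1.44, and lncRNA:CR43242 by 1.52 and 1.53, again with no interaction past the threshold (adjusted p = 0.142 and 0.981). In all, 203 genes were called in both comparisons in 1 direction with an interaction that did not pass, which does not show that the effects were equal.

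For others the estimated effects differed. The interaction passed for 14 of the 15 rises and 14 of the 15 falls ranked above, against 49.4% of all genes. Sr-CIII and GstE7 were the exceptions. The interaction contains the difference by which these genes were picked, so that their high share is no evidence of unlike effects. Prx6c rose by 2.35 on the Su(var)3-9 mutant background and fell by 0.75 without it. The gene miple1, a midkine and pleiotrophin homolog, read 10.82, 10.74 and 10.86 in the Su(var)3-9 mutant and 9.32, 9.48 and 9.60 in the double mutant, a fall of 1.34 that passed in every fit, whereas the egg mutant was higher than the control by 2.43 (means 10.76 and 8.34). For bcd, CG8100 and Obp19a the egg mutant and the control differed by 0.025, 0.014 and 0.22, none past the threshold. Hsp26 rose by 1.10 with the Su(var)3-9 mutation present and differed by -0.043 in its absence (interaction 1.14, SE 0.161, adjusted p = 0.000137).

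**Figure D5:**
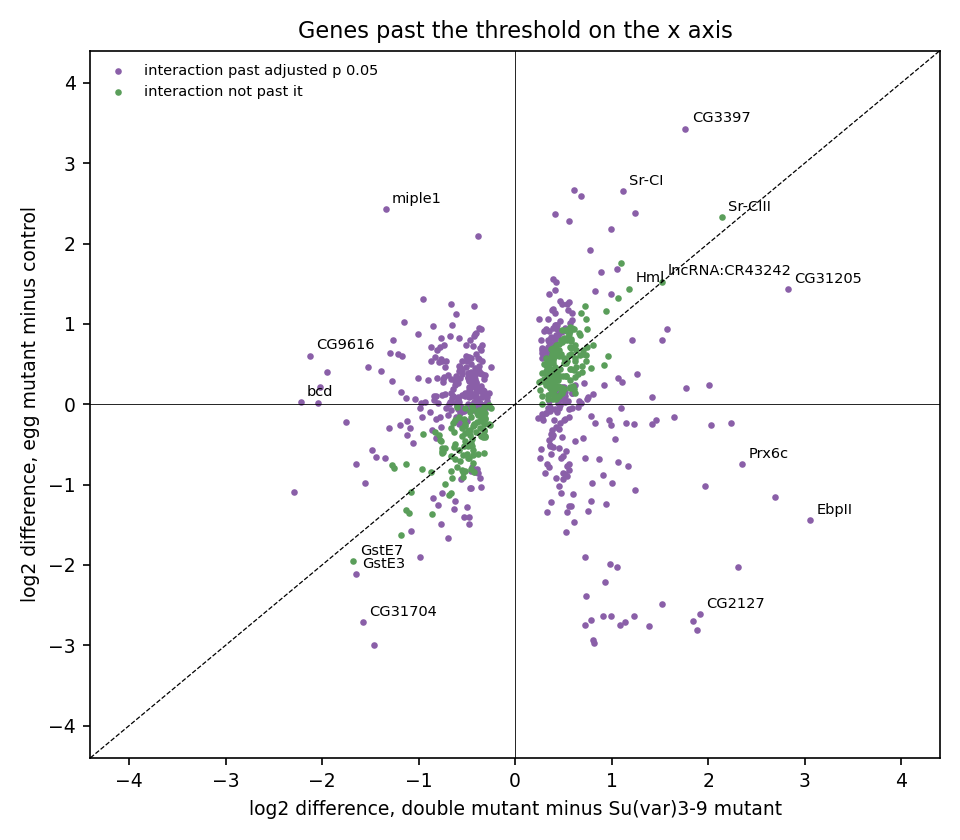
Log2 difference of the double mutant from the Su(var)3-9 mutant (x axis) and of the egg mutant from the control (y axis) for the 718 genes called on the x axis, coloured by whether the interaction passed an adjusted p of 0.05, with a dashed line of equal differences. The 267 genes without such an interaction, Sr-CIII and GstE7 among them, lie along the dashed line, whereas miple1 is at -1.34 on the x axis and 2.43 on the y axis.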

How the data were processed

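RNA of adult heads was measured on 13 arrays of 4 genotypes, of which 12 had values. The second array of a technical pair of the control had an empty column, so control replicate 1 rests on its first array. The deposited values are log2 signals per probe set, and the authors made them with RMA, per the submitters' processing notes, which also name limma. Their versions are not given in the sources used here. Medians of single arrays ran from 5.71 to 6.14 in these log2 signals, so the arrays did not share a common distribution. A change in total RNA was not tested and cannot be read from such values.

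From 18952 probe sets, 183 Affymetrix controls were left out. The platform annotation gave 13646 of the other 18769 probe sets 1 symbol, 402 several and 4721 none, and 11892 of 11981 genes were placed on an arm of the Release 6 annotation, used for names and order. The brightest probe set over all arrays stood for each of the 1094 genes with several.

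The means of 4 groups were fitted to 12 arrays with limma 3.58.1 in R 4.3.3 (lmFit, eBayes, 4.162 prior degrees of freedom). Tests were two-sided, with Benjamini-Hochberg adjustment over all probe sets and calls at 0.05. The code was tested on simulated data. Tables used Python 3.11.15, pandas 2.3.3 and numpy 2.4.6. Named were the 15 largest rises and falls among called genes whose groups did not overlap, and the 3 largest of such probe sets without a symbol. Up to 4 genes of each list and the 5 largest interactions of each sign were also named. Other named genes were chosen after their values were seen. Of 33 gene lists, 30 wrong symbol matches were removed, and the transposon list had no measured member. Members and lists were chosen with earlier results of these data known. Arrays give no read depth, and 3 per group limit the precision. Alternatives changed the arrays, the model, the scaling, the filter or the probe set.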

Additional observations from a re-analysis of the deposited data

Results flagged for a closer look

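The test of the interaction passed for 7627 probe sets with the values as deposited, 11988 with arrays centred on the median and 6124 after cyclic loess. The count therefore depends on the scaling of the arrays. An effect of the egg mutation cannot be told apart here from other differences between the groups. Interaction values below are the log2 difference of double and Su(var)3-9 mutant minus that of egg mutant and control, and the control arrays were far higher than the others in male and gut transcripts, whose part was not tested.

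Among genes that rose in the double mutant the interaction was 4.499 for EbpII, 4.53 for CG2127, 4.33 for CG9029 and 2.98 for BG642312, genes that were highest on double mutant replicate 2. It was 3.10 for Prx6c, 2.47 for CG14419, 2.29 for CG31809, 1.81 for lncRNA:CR32368, 1.77 for CG14647, 1.58 for AttD, 1.39 for CG31205, 0.72 for CG2519 and 0.64 for CG12594. For CG3397, which rose more in the egg mutant against the control (3.43) than here (1.77), it was -1.67.

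Among genes that fell, it was -2.73 for CG9616, -2.35 for CG30287, -2.25 for bcd, -2.24 for Obp19a, -2.06 for CG8100, -1.998 for Lcp65Ac, -1.53 for ninaD, -1.20 for Spn47C, -0.92 for alpha-Est2, -0.91 for Ugt37A3 and -0.57 for CG34227. A positive interaction went with a larger fall between egg mutant and control than here for LysP (1.54), CG31704 (1.14) and GstE3 (0.47).

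The largest interactions of either sign included lncRNA:CR9284 at 4.69, Ebp, another ejaculatory bulb protein, at 4.57 and CG15219 at 4.54. On the negative side were Cp15, a chorion protein gene, at -4.002, miple1 at -3.77, Cks30A, a cyclin-dependent kinase subunit of the germ line, at -2.61, and NimC1 at -2.48. Cp15 and Cks30A differed by -0.071 and 0.035 between double and Su(var)3-9 mutant. Between egg mutant and control they differed by 3.93 (SE 0.915) and 2.65 (SE 0.13). The median of the ovary and chorion list was 6.15 on egg mutant replicate 1 and 4.41 and 4.84 on replicates 2 and 3. No alternative fit left out an egg mutant or control array.

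Of the probe sets without a name, the interaction was -7.19 for 1626205_s_at, -5.55 for 1634633_s_at, -3.93 for 1641245_a_at, 2.58 for 1635666_at, 1.95 for 1639571_s_at and 1.92 for 1626821_s_at.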

How the results depend on the processing

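All 971 probe sets kept their direction in each fit that tested them (843 where those under the 40th percentile of mean signal were left out). Their count was 754 with the 6 compared arrays alone, 1252 with trend and robust eBayes and 1152 with array weights. It was 1088 after that filter, 891 with arrays centred on the median, 979 on the brighter probe sets and 991 after cyclic loess. Leaving out 1 array gave 610 to 886 (265 to 406 higher, 319 to 480 lower). Leaving out Su(var)3-9 mutant replicate 3 and double mutant replicate 2 gave 564 (243 higher, 321 lower), of which 498 were among the 971. A minimum of 1.5-fold left 392 (173 higher, 219 lower) and 4805 interactions. Interactions numbered 11988 with arrays centred on the median. Replicate numbers did not pair the arrays: the correlation of deviations was 0.049, -0.36 and -0.321 for the same numbers, and with the replicate block 761 probe sets passed (356 higher, 405 lower) and 7258 interactions. Over the named genes and probe sets, 198 of the alternative values lost the call, 2 gained one and 7 changed sign. The sign changed for bw with the mean of its probe sets (0.1508), for Cp15 with array weights (0.0244) and between arrays left out (-0.1658 to 0.0896), and for Cks30A with array weights (-0.0176) and between arrays left out (-0.0693 to 0.1672). The cause was not tested. Small differences are limited by 3 arrays per group.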

Other observations

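Several genes of cytosolic nucleic acid sensing were higher in the double mutant. They were chosen after their values were seen. cGlr2, a cGAS-like receptor, read 5.47, 5.75 and 5.30 in the Su(var)3-9 mutant and 6.55, 6.56 and 6.31 in the double mutant (difference 0.97, adjusted p = 0.000242). Sting, the adaptor that binds the cyclic dinucleotides such receptors make, read 6.60, 6.30 and 6.61 against 7.02, 7.33 and 7.24, and Nazo, an antiviral gene downstream of it, read 4.49, 3.98 and 4.10 against 5.73, 5.23 and 5.85. The 3 genes did not overlap between the groups and passed in every fit. Of 8 measured genes of the pathway, 5 were higher and none lower, against 3.09% higher of all genes. As the genes were chosen by their values, this count says nothing about the pathway as a whole. The others called were Rel and key, whose calls did not hold in every fit, and cGlr1 (-0.043), IKKbeta (-0.23) and Vago (0.18) did not pass. cGlr2 and key are among the 100 genes nearest to egg.

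Of the genes of the complex that binds broken DNA ends, also chosen after their values were seen, mre11 rose from 5.56, 5.47 and 5.59 to 5.90, 6.38 and 6.07 and rad50 from 6.75, 6.59 and 6.81 to 7.34, 7.31 and 7.25, both in every fit, while nbs differed by 0.043 and did not pass. Set8, the methyltransferase of histone H4, fell from 8.40, 8.05 and 8.16 to 7.52, 7.23 and 7.52 (adjusted p = 0.00217), the 1 of 8 histone lysine methyltransferase genes looked up that passed.

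Probe sets of one gene did not always move together. Among 23 genes with several called probe sets, 4 had calls in both directions, and 39 genes were called by a dimmer probe set alone. The brighter probe set of teq, a gene of a serine protease, fell by 0.42, a call that did not hold in every fit, whereas a dimmer one read 4.69, 4.69 and 4.72 in the Su(var)3-9 mutant and 7.44, 7.49 and 7.66 in the double mutant. A dimmer probe set of be fell by 2.36 while its brighter one differed by 0.086. For CG40485 a dimmer probe set rose by 1.70 and the brighter differed by -0.051. At that dimmer CG40485 probe set the egg mutant and the control had means of 5.99 and 6.04, below 9.33 to 11.4 on the 6 arrays compared here. For CG14642, Pxn and Trax a dim second probe set differed by -0.17, 0.033 and -0.096 and did not pass.

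Besides GstE5 to GstE7 and the Cyp6a genes, the runs of 3 neighbouring genes called in 1 direction were kon, Ugt301D1 and CG10211 on 2L, which fell by 0.36, 1.06 and 0.56, and Hibch, Cog2 and Trax on 3R, which rose by 0.35, 0.63 and 0.40. Of these 6 genes, only Ugt301D1 was called in every fit.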
